A study of Mus musculus with 7 samples.

Results

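Ketone body use and monocarboxylate transport were described through 8 genes of the 23413 gene symbols counted in mouse brain cortex. The genes were taken by name: Bdh1, Oxct1 and Acat1 for the oxidation of ketone bodies, Aacs for their use in lipid synthesis, Slc16a1, Slc16a7 and Slc16a3 for their transport, and Bsg for the partner protein of the transporters. All 8 were present in every library and were among the 15881 genes that could be tested. The libraries came from 7 APP/PS1 mice, which carry the APPswe and PSEN1dE9 transgenes as a model of Alzheimer's disease, and no wild-type cortex was analysed here. At 6 months of age the mice were placed, singly housed, on 1 of 2 diets with the same protein share, and cortex was taken at 13 months, after 7 months of diet. In the control diet (CD, 4 mice, labelled SD in the deposited samples) carbohydrate gave 74% of the calories and fat 16%. In the ketogenic diet (KD, 3 mice) fat gave 90% and carbohydrate under 0.5%. The paper measured the blood ketone body β-hydroxybutyrate after feeding and after an overnight fast, and collected tissues following the morning measurement. By that order the cortex of both diets came after a fast, though the paper does not say so outright. The sex of each mouse is not in the labels, and both sexes were used in the study. Xist, the RNA of the inactive X chromosome, had at least 248 CPM in CD replicates 1 and 2 and KD replicates 1 and 2, and at most 3.08 CPM in CD replicates 3 and 4 and KD replicate 3.

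Ketone bodies are made in the liver from fatty acids when carbohydrate is scarce, and the brain takes them up as a fuel. β-hydroxybutyrate and acetoacetate cross membranes through proton-linked monocarboxylate transporters (MCTs), which also carry lactate and pyruvate. In mitochondria Bdh1 oxidises β-hydroxybutyrate to acetoacetate, Oxct1 activates acetoacetate with coenzyme A, and Acat1 splits the product into acetyl-CoA. Slc16a1 encodes MCT1, which in brain is known from endothelium, oligodendrocytes and astrocytes. Slc16a7 encodes MCT2, a high-affinity form known from neurons, and Slc16a3 encodes MCT4, a form known from glycolytic cells and astrocytes.

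None of the 8 genes differed between KD and CD beyond the spread of the libraries. In edgeR's quasi-likelihood test, 0 of 8 reached the study's raw p threshold of 0.01, which 0.321% of all tested genes reached. At a raw p under 0.05 there were also 0 of 8, against 3.19% of all. The paper does not name its edgeR test, and it reported more genes at the threshold of 0.01 than the 51 found here. The CD and KD ranges of CPM, the counts scaled to library size and by the TMM method, overlapped for all 8 genes. They stood apart for 4.11% of the tested genes, with KD below CD for 2.07% and above it for 2.05%. No gene of the series had a Benjamini-Hochberg adjusted p under 0.05 in this test (0% of 15881, with 506 at a raw p under 0.05), and DESeq2 and limma-voom likewise gave 0 and the likelihood-ratio test 1. In edgeR's quasi-likelihood test the adjusted p of the 8 genes ranged from 0.979 to 0.993. The log2 fold changes ran from -0.46 for Slc16a3 to 0.18 for Slc16a7, 4 above and 4 below 0, with a median of -0.02. The 95% intervals of 7 genes lay inside a 1.5-fold change in either direction (87.5%, against 56.8% of all tested genes, not matched for count level). The exception was Slc16a3, the least abundant.

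**Figure D1:**
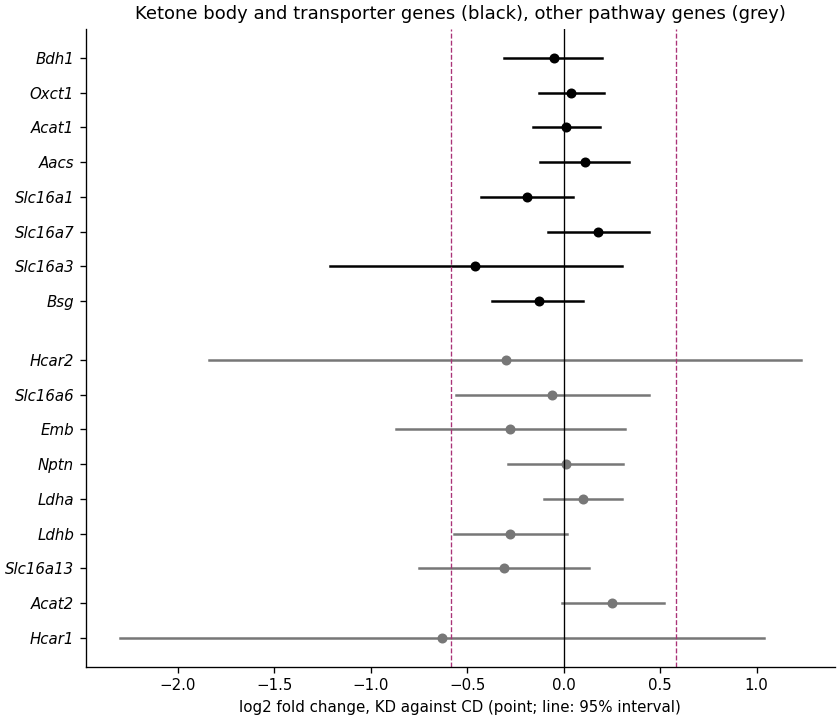
Log2 fold change of KD against CD (point) with its 95% interval (line) from edgeR's quasi-likelihood fit, for the 8 genes in black and for other genes of the pathway in grey; dashed lines mark a 1.5-fold change. Each of the black intervals crosses 0, and all but that of Slc16a3 stay between the dashed lines.

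The libraries held 22272883 to 36614954 counts, with a smaller median in KD, and no 2 libraries of a diet agreed within sampling noise (chi-square per gene of at least 15.4, where noise alone gives 1). Markers of cortical excitatory neurons, such as Slc17a7 and Cux2, had a summed level of 889.8 to 1250.3 CPM over 8 genes, lowest in CD replicate 4. CD replicate 4 and KD replicate 3 stood apart from the other 5 libraries on the first principal component. Both had the highest levels of olfactory bulb markers (62.0 and 20.7 CPM, against 4.19 to 9.44 CPM elsewhere) and of meningeal markers (302 and 139.8 CPM, against 40.2 to 80.4 CPM). They lay at opposite ends for 7 striatal markers, with 114 CPM in CD replicate 4 and 292 CPM in KD replicate 3, against 151 to 179.8 CPM elsewhere. Choroid plexus markers reached 467 CPM in CD replicate 1, against 13.1 to 79.4 CPM in the other libraries. The sum of 9 microglial markers was 419 to 695 CPM in CD and 562 to 790.3 CPM in KD, with 7 log2 fold changes above 0 and 2 below. In edgeR's quasi-likelihood test 2 of 9 had a raw p under 0.05, against 3.19% of all tested genes. The astrocyte, neuronal, mural cell and striatal lists had 1 such gene each, and the other marker lists none. CD replicate 3 and KD replicate 3 had the lowest summed level of the 10 oligodendrocyte markers. Little Xist was found in the libraries apart on the first principal component and in those lowest in oligodendrocyte markers. CD replicate 1, high in choroid plexus markers, had 250.3 CPM of Xist. KD replicate 2, with 2221 CPM of oligodendrocyte markers, had 327 CPM of Xist. The part of the Xist split in the results was not tested beyond the fit with Xist as a covariate. In that fit 0 of the 8 genes reached a raw p of 0.01 in edgeR's quasi-likelihood test, against 208 of all 15881 tested genes. With CD replicate 4 and KD replicate 3 left out, a choice made after seeing the data, again 0 of the 8 genes reached a raw p of 0.01. There 54 of all 15908 tested genes reached it. With so few genes called, 0 of 8 tells little about these genes.

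The 3 transporters are paralogs, so it was asked whether their reads could be confused. Their coding sequences were 64.8% identical between Slc16a1 and Slc16a7, 59.3% between Slc16a1 and Slc16a3, and 58.7% between Slc16a7 and Slc16a3. The longest identical run in any pair of them was 20 bases, shorter than a read of 50 bases. Stretches of 60 coding bases that start at a codon of Slc16a1 and hold no gap were compared. The one in which the 3 genes are most alike follows, 5′ to 3′ on the coding strand. Capitals mark the 36 positions shared by all 3, to show how far the closest of these stretches still differs.
Slc16a1: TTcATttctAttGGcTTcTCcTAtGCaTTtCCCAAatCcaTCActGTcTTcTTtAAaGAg
Slc16a7: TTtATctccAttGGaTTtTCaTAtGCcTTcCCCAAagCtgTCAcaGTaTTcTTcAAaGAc
Slc16a3: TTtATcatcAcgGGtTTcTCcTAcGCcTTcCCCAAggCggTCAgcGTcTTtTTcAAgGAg
In mm10 these stretches lie within exon 2 of Slc16a1 (chr3:104649379-104649438, plus strand), exon 3 of Slc16a7 (chr10:125294674-125294733, minus strand) and exon 3 of Slc16a3 (chr11:120955331-120955390, plus strand), early in the coding part of each. The capitals fall mostly in short runs, and the small letters are spread over the whole stretch. Of all 50-base words in annotated transcripts, those of Slc16a1, Slc16a3, Acat1 and Bsg occurred in no other gene. For Oxct1 11.2% also occurred in BC037032, which overlaps it on the opposite strand and had at most 56 counts, for Bdh1 11.1% occurred in Gm15743, an antisense gene, for Slc16a7 1.35% and for Aacs 0.0511% occurred elsewhere. Whether the counting used the strand is not given in the sources used here, so reads from these overlaps cannot be told apart.

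Levels of different genes were compared per kilobase of merged exons. Bsg had 130.3 ± 12.7 CPM per kb (SD, n = 7) and Oxct1 129 ± 5.22 CPM per kb (SD, n = 7), and their ranges over libraries overlapped. Acat1 followed with 31.1 ± 1.43 CPM per kb (SD, n = 7). Slc16a1 had 23.6 ± 2.63 CPM per kb (SD, n = 7), with no library as high as the lowest Acat1 value.

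Bdh1 (11.7 ± 1.15 CPM per kb, SD, n = 7) and Aacs (10.9 ± 0.91 CPM per kb, SD, n = 7) overlapped again. Slc16a7 had 2.98 ± 0.348 CPM per kb and Slc16a3 0.496 ± 0.182 CPM per kb (SD, n = 7). Oxct1 and Acat1, the later steps of ketone oxidation, stood above Bdh1 in every library, and the 3 transporters followed the order Slc16a1, Slc16a7, Slc16a3 in every library. With the length of the longest transcript in place of the merged exons, Bsg stood at 155 and Oxct1 at 135 CPM per kb, and the order of the 8 genes was the same. For Slc16a7 the merged exons (11.839 kb) and the longest transcript (10.981 kb) are close in length. How far its level and its share of the transporters depend on that length was therefore not tested.

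**Figure D2:**
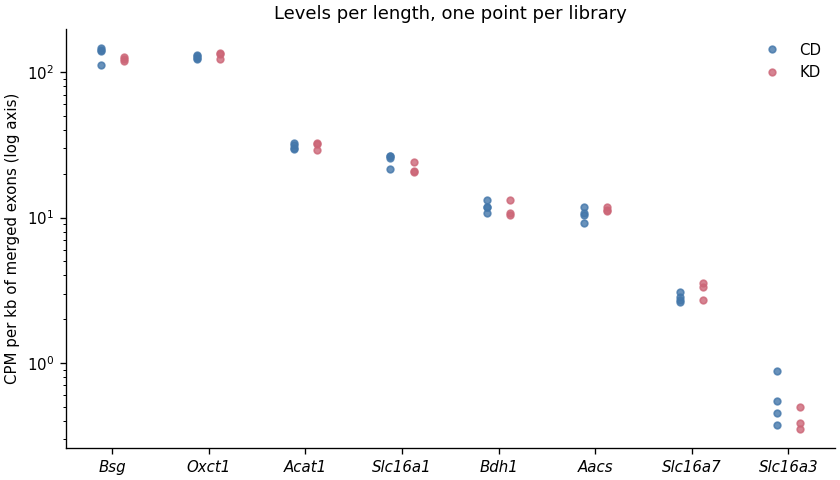
CPM per kb of merged exons (log axis) of the 8 genes, 1 point per library, CD in blue and KD in red. The levels run from 147 CPM per kb in the highest Bsg library to 0.349 CPM per kb in the lowest Slc16a3 library, and within each gene the diets overlap.

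Among the enzymes of ketone oxidation, Oxct1 and Acat1 had nearly flat levels. Oxct1 (chromosome 15, 4026383 to 4155344) encodes the transferase that commits acetoacetate to oxidation. It had 487, 457, 461 and 478 CPM in CD replicates 1 to 4 and 502, 497 and 456 CPM in KD replicates 1 to 3. The highest and the lowest of the 7 values were both KD libraries. The KD to CD log2 fold change was 0.04, its standard error 0.08, and the 95% interval from -0.13 to 0.21 covers ratios of 0.915 to 1.16. The spread of Oxct1 over the 7 libraries, an SD of 0.06 on the log2 scale, was lower than that of all but 1.66% of the tested genes. This ranking, and that of Acat1 below, was not matched for count level.

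Acat1 (chromosome 9, 53580522 to 53610382), the mitochondrial thiolase, had 113, 111, 118 and 123 CPM in CD and 121, 109.7 and 122 CPM in KD. The diets covered the same range. Its log2 fold change was 0.01 (standard error 0.08, 95% interval -0.16 to 0.19), and its spread lay at percentile 3.17 of all tested genes. Bdh1 (chromosome 16, 31422280 to 31458901), the dehydrogenase that acts on β-hydroxybutyrate itself, had 45.9, 51.5, 41.9 and 45.7 CPM in CD and 40.7, 51.3 and 41.6 CPM in KD. KD replicates 1 and 3 were the lowest libraries, next to CD replicate 3, while KD replicate 2 was close to the highest CD library. The log2 fold change of Bdh1 was -0.05 (standard error 0.11, 95% interval -0.31 to 0.20). The ratio of Oxct1 to Bdh1 per length was 9.33 to 11.5 in CD and 10.2 to 13 in KD.

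Aacs (chromosome 5, 125475814 to 125517410) activates acetoacetate in the cytosol, where the product feeds the synthesis of cholesterol and fatty acids. It had 45.4, 35.4, 40.4 and 41.6 CPM in CD and 45.5, 43.1 and 43.3 CPM in KD. The KD values lay at the upper end of the CD range, with CD replicate 1 among them. The difference between the diets was, as a log2 fold change, 0.11 (standard error 0.10, 95% interval -0.12 to 0.34). Acat2, the cytosolic thiolase of the same route, was named after its values were seen. It had 52.7 ± 7.26 CPM in CD (SD, n = 4) and 62.9 ± 2.76 CPM in KD (SD, n = 3), a log2 fold change of 0.25 with a 95% interval from -0.01 to 0.52 and an adjusted p of 0.979.

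**Figure D3:**
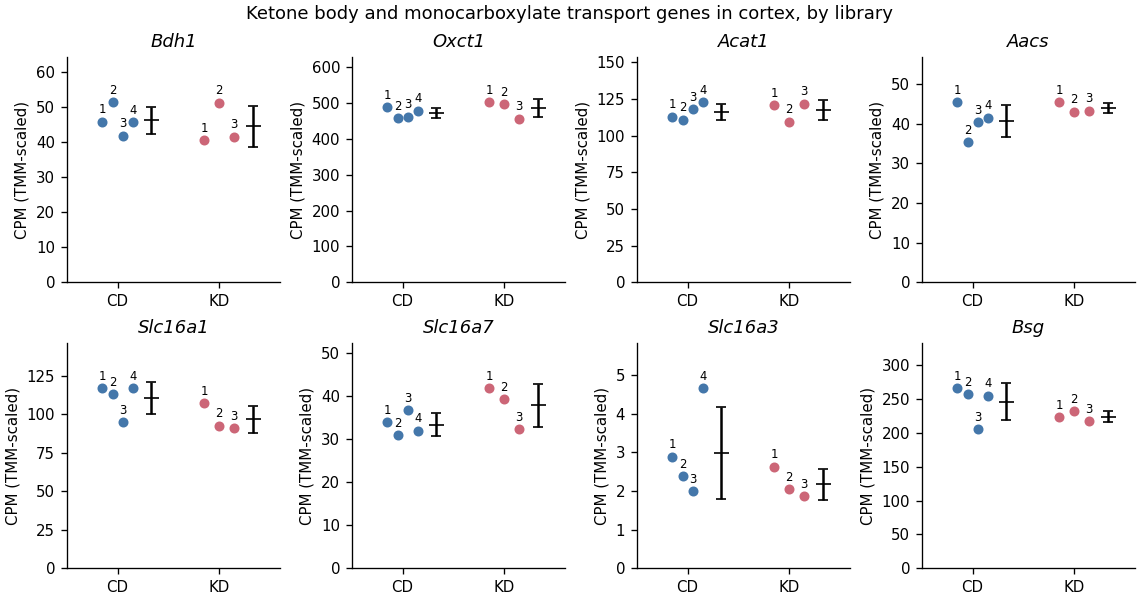
CPM (TMM-scaled) of the 8 genes in each library, numbered by replicate, with the mean and SD of each diet beside the points (CD, n = 4; KD, n = 3); each axis starts at 0. The Oxct1 points lie between 456 and 502 CPM, CD replicate 3 lies among the KD values for Slc16a1 and below them for Bsg, and CD replicate 4 has the highest Slc16a3 value, 4.66 CPM.

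Of the transporters, Slc16a1 and Slc16a7 lay on opposite sides of 0, and neither difference passed a test. Slc16a1 (chromosome 3, 104638668 to 104658462) had 117, 113, 94.9 and 117 CPM in CD and 107, 92.5 and 91.0 CPM in KD. Each KD library lay below 3 of the 4 CD libraries, and CD replicate 3 lay among the KD values. For Slc16a1 the log2 fold change was -0.19 (standard error 0.10, 95% interval -0.43 to 0.05), with an adjusted p of 0.979 in edgeR's quasi-likelihood test. Slc16a7 (chromosome 10, 125219270 to 125389465) had 33.9, 30.9, 36.7 and 31.9 CPM in CD and 41.8, 39.2 and 32.3 CPM in KD. KD replicates 1 and 2 were the highest libraries, and KD replicate 3 lay inside the CD range. For Slc16a7 it was 0.18 (standard error 0.11, 95% interval -0.08 to 0.44), with an adjusted p of 0.979 in edgeR's test.

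Slc16a3 (chromosome 11, 120948480 to 120960868) had few counts, 42 to 177 per library. It had 2.89, 2.39, 1.99 and 4.66 CPM in CD and 2.63, 2.04 and 1.86 CPM in KD, so that CD replicate 4 was alone at the top. As a log2 fold change the difference was -0.46 (standard error 0.33, 95% interval -1.21 to 0.30), and it was -0.16 without CD replicate 4. CD replicate 4 is also the library with the most olfactory bulb and meningeal marker RNA, whose part in the value was not tested. Of the summed level of the 3 transporters per length, Slc16a1 made up 86.1 to 89.3% in CD and 85 to 87% in KD. Slc16a7 made up 10.0 ± 1.62% in CD and 12.5 ± 0.957% in KD. Within single libraries the Slc16a7 share was 9.63, 9.15, 12.4 and 8.94% in CD and 12.5, 13.5 and 11.6% in KD, so that CD replicate 3 again lay among the KD libraries.

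Bsg (chromosome 10, 79704491 to 79711969) encodes basigin, the membrane glycoprotein that carries MCT1 and MCT4 to the cell surface. It had 266, 257, 205 and 255 CPM in CD and 223, 232 and 217 CPM in KD. CD replicate 3 was the lowest of all 7 libraries, and the other CD libraries were above every KD library, as for Slc16a1. The log2 fold change of Bsg was -0.13 (standard error 0.10, 95% interval -0.37 to 0.10). The ratio of Bsg to Slc16a1 per length was 5.43 ± 0.158 in CD (SD, n = 4) and 5.67 ± 0.541 in KD (SD, n = 3).

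CD replicate 3 was the library that made the diets overlap for both genes, so leaving it out sets the KD range below the CD range for these 2 of the 8 genes by construction, and nothing is read from it. Of all tested genes 14.3% then stood apart, 7.18% with KD below CD and 7.11% with KD above. That fit gave Slc16a1 -0.25 on the log2 scale (standard error 0.0908) and Bsg -0.21 (standard error 0.0762). These 2 of the 8 had a raw p under 0.05 there, where 7.38% of all tested genes had one, and the adjusted p of each in edgeR's quasi-likelihood test was 0.674. Over all fits that left out a single library Slc16a1 ranged from -0.27 to -0.15, Bsg from -0.21 to -0.10 and Slc16a7 from 0.10 (without KD replicate 1) to 0.28 (without KD replicate 3). A raw p under 0.05 was also seen for Slc16a1 without KD replicate 1 and for Slc16a7 without KD replicate 3, with adjusted p of 0.931 and 0.998 in edgeR. The share of all tested genes under 0.05 in these fits is not given here, so nothing is read from these values. Without both CD replicate 4 and KD replicate 3 the values were -0.11 for Slc16a1, -0.09 for Bsg and 0.26 for Slc16a7, each with an adjusted p of 0.999 in edgeR. Slc16a7 had a raw p under 0.05 there too (0.0472 in edgeR's quasi-likelihood test), again with no share of all tested genes given beside it.

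Oligodendrocytes and endothelium express Slc16a1, so their markers were set beside it. The summed level of 10 oligodendrocyte markers, such as Mbp, Mag and Mog, was 4371, 3915, 1132 and 3646 CPM in CD and 4284, 2221 and 1157 CPM in KD. All 10 had a log2 fold change below 0 (median -0.40), and 0 of 10 had a raw p under 0.05. The 3 libraries with the lowest oligodendrocyte level, CD replicate 3, KD replicate 3 and KD replicate 2, were those with the lowest Slc16a1 level. In the CD group CD replicate 3 was low in both, and in the KD group KD replicate 1 was the highest in both. Between the diets the orders parted. KD replicate 1 had more oligodendrocyte marker RNA than CD replicates 2 and 4 but less Slc16a1 (107 CPM, against 113 and 117 CPM).

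The summed level of 10 endothelial markers, such as Cldn5, Pecam1 and Flt1, was 308, 266, 269 and 407 CPM in CD and 321, 298 and 246 CPM in KD. Their median log2 fold change was -0.15, with 8 of 10 below 0 and none at a raw p under 0.05. CD replicate 4 was highest for endothelium, a library whose Slc16a1 level was like that of CD replicate 1. No marker of either list was at 0 in every library. In bulk cortex, fewer cells of a type and less RNA per cell cannot be told apart, and the part of these cell types in the Slc16a1 and Bsg values was not tested. The sum of 9 astrocyte markers was 5580.4 to 6368 CPM in CD and 5047 to 7671 CPM in KD, and that of 8 neuronal markers was 6935 to 8591 CPM in CD and 6229 to 8317 CPM in KD.

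**Figure D4:**
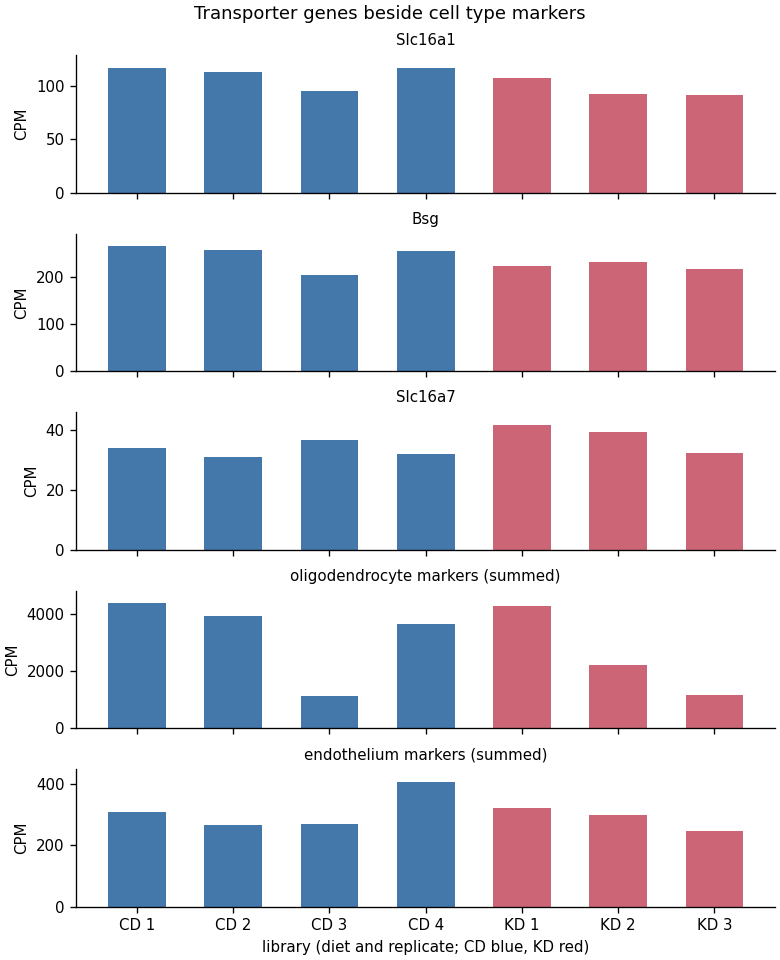
CPM of Slc16a1, Bsg and Slc16a7 and the summed CPM of 10 oligodendrocyte and 10 endothelial markers in each library (bars from 0; CD blue, KD red). CD replicate 3 is low for Slc16a1 (94.9 CPM), Bsg (205 CPM) and oligodendrocyte markers (1132 CPM), but not for Slc16a7 (36.7 CPM).

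The wider pathway was described by 29 further genes in 7 lists that also hold the 8 genes, chosen with earlier results of these data known. All 29 were found in the files, and 25 were tested, the others being at or under 13 counts in every library (Oxct2a, Oxct2b, Slc5a8 and Ffar3). In edgeR's quasi-likelihood test, 0 of 25 had a raw p under 0.05, against 3.19% of all tested genes. Apart from Mpc1, the tested pathway genes named here had none under it in the likelihood-ratio test, DESeq2 or limma-voom. Under other alternatives Ldhb had one with library-size scaling, with the filter of at least 1 count, with Xist as a covariate, with the replicate block and without CD replicate 3 or KD replicate 2. Acat2 had one with library-size scaling and without CD replicate 2. Mpc1, a subunit of the mitochondrial pyruvate carrier, had one without CD replicate 3, and its p-values under the other alternatives are not given here. The median log2 fold change was -0.06 (11 above 0, 14 below), against -0.0033 over all tested genes. The CD and KD ranges stood apart for 1 of 25, Slc16a13, a transporter of the same family, with 3.74 to 5.18 CPM in CD and 3.32 to 3.71 CPM in KD, a share near the 4.11% of all tested genes. Its adjusted p in edgeR's test was 0.979.

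Slc16a6, which encodes a transporter known to export β-hydroxybutyrate from liver, had 7.37 ± 0.875 CPM in CD and 7.05 ± 2.10 CPM in KD (SD, n = 4 and n = 3). Hcar2, listed in the files under its older name Niacr1, is the receptor for β-hydroxybutyrate. It had 90, 56, 32 and 17 counts in CD and 41, 48 and 8 counts in KD. The values were 0.447 to 2.57 CPM in CD and 0.354 to 1.77 CPM in KD, a log2 fold change of -0.30 whose 95% interval, from -1.84 to 1.23, covers ratios of 0.279 to 2.34. Hcar1 (listed as Gpr81), the lactate receptor, named after its values were seen, had 0.855 to 4.68 CPM in CD and 0.389 to 2.21 CPM in KD, with CD replicate 4 the highest.

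The other partners of the transporters are Emb, embigin, which MCT2 uses, and Nptn, neuroplastin. Nptn had 720.3 ± 107 CPM in CD (SD, n = 4) and 726 ± 64.0 CPM in KD (SD, n = 3), and per length its level over libraries, 117 ± 13.7 CPM per kb (SD, n = 7), overlapped that of Bsg. Emb had 44.3, 41.1, 38.2 and 80.5 CPM in CD and 49.7, 38.6 and 38.0 CPM in KD. CD replicate 4 was far above the others, and without it the log2 fold change turned from -0.28 to 0.03.

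Lactate, the other substrate of these transporters, is interconverted with pyruvate by lactate dehydrogenase, whose A and B chains are encoded by Ldha and Ldhb. Ldhb had 446, 430.4, 347 and 379 CPM in CD and 349, 365 and 278 CPM in KD. Only CD replicate 3 lay among the KD values. Its log2 fold change was -0.28 (standard error 0.13, 95% interval -0.57 to 0.02), with an adjusted p of 0.979 in edgeR's quasi-likelihood test. With Xist as a covariate it was -0.30, past the raw p threshold of 0.01, as were 208 of the 15881 genes in that fit, with an adjusted p of 0.672 in edgeR. Without KD replicate 3 it was -0.17, with an adjusted p of 0.998 in edgeR. Ldha had 255, 276, 264 and 224 CPM in CD and 271, 271 and 275 CPM in KD, a log2 fold change of 0.10 (standard error 0.09). Per length, the ratio of Ldhb to Ldha was 3.68, 3.28, 2.78 and 3.57 in CD and 2.71, 2.84 and 2.13 in KD, with the CD and KD ranges overlapping at CD replicate 3.

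The 2 of the 8 genes that varied most between libraries were Slc16a3 (SD of 0.44 on the log2 scale) and Slc16a7 (0.16). Likeness to them was measured as the root mean square difference between log2 CPM profiles, each centred on its own mean over the 7 libraries. For Slc16a3 the nearest genes were Hcrtr2 (0.0581), Stard13 (0.0914) and Slc6a9 (0.107). In Hcrtr2, an orexin receptor, levels ran from 4.40 to 10.6 CPM in CD and from 4.47 to 6.65 CPM in KD. For Slc16a7 the nearest were Herc4 (0.0418), Rasa2 (0.0535) and 2210018M11Rik (0.0592). Herc4, a ubiquitin ligase, had 62.1 to 77.6 CPM in CD and 64.8 to 80.2 CPM in KD. These genes were picked for their likeness over these same libraries, so nothing is read from the overlap of their diets.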

How the data were processed

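The authors isolated RNA from frozen cortex (10 mg a mouse) and sequenced stranded libraries of total RNA as read pairs of 50 bases. Alignment to mm10 and gene counting, by the HTSeq method, were both done by the authors in STAR. The deposited values are raw counts per gene symbol and mouse, neither normalized nor pooled. Versions, annotation and strand setting are not given in the sources used here.

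Diet and replicate were taken from the sample titles. Low genes were removed with filterByExpr, libraries were scaled by TMM, and KD was compared with CD by edgeR 4.0.16 in R 4.3.3 (glmQLFit with robust=TRUE, glmQLFTest, no covariate), with Benjamini-Hochberg adjustment over the 15881 tested genes. The study's methods name edgeR, TMM and a raw p threshold of 0.01. Standard errors and 95% intervals were derived from the quasi-likelihood F. P-values set the difference between the diets against the spread between these libraries, each from a different mouse. CPM values use TMM-scaled library sizes, and log2 CPM for spreads a prior count of 2. Total depth per library, 22272883 to 36614954 counts, sets the counting error; how far it widens the intervals of low genes was not tested. Coordinates, exon lengths and coding sequences are from GENCODE M21, the same genome; sequences were aligned with Biopython 1.88. The 8 genes and all lists were chosen with earlier results of these data known. Named genes were the 8, 6 further pathway genes (others fixed with them are not reported here), pathway genes with a raw p under 0.05 or ranges that stood apart, and the 3 nearest profiles of the 2 most variable genes. Acat2, Hcar1 and Mpc1 were added after their values were seen. The fit was tested on simulated data. Alternatives were RLE or library-size scaling, keeping every gene with a count or those reaching 1 CPM in 3 libraries, the likelihood-ratio test, DESeq2 1.42.0, limma-voom (limma 3.58.1), Xist as a covariate, a replicate block and leaving out libraries.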

Additional observations from a re-analysis of the deposited data

Results flagged for a closer look

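Single libraries that stand far from the rest of CD (n = 4) were sought in 31 values with Dixon's ratio. It is the distance of the extreme library to its neighbour divided by the whole range, here taken on log values. Chance puts about 1 in 20 past the 95% critical value, and 2 were past it, both through CD replicate 3. Bsg had 205 CPM there against 255 to 266 CPM elsewhere in CD (ratio 0.838). The summed oligodendrocyte markers had 1132 CPM there against 3646 to 4371 CPM (0.866). The part of the oligodendrocyte RNA in the Bsg value was not tested. The depth of CD replicate 3, 32782790 counts, lay inside the range of its group.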

How the results depend on the processing

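Of 136 fold changes of the 8 genes (17 alternatives each), 130 had the main direction, and none reached a raw p of 0.01. The 6 that turned were those of Bdh1 (range -0.17 to 0.01) and Acat1 (-0.02 to 0.06) when one library was left out. Leaving out one library also turned Hcar2 (-0.69 to 0.12), Slc16a6 (-0.30 to 0.13), Emb (-0.41 to 0.03), Nptn (-0.09 to 0.08) and Hcar1 (-1.17 to 0.14). Without both CD replicate 4 and KD replicate 3 the values were 0.08 for Slc16a6, 0.10 for Emb and -0.03 for Nptn. With Xist as a covariate Nptn had -0.00019. The labels tie no number to a shared litter, batch or day. Same-numbered libraries deviated together with correlations of 0.251, 0.195 and 0.098, where each had to exceed 0.1 for the numbers to be taken as pairs, and the members of each pair were alike in Xist, so the numbers were not used as pairs in the main fit. With the replicate block over the libraries numbered 1 to 3 Emb had 0.02 and Nptn -0.09.

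Over all genes, 51 reached a raw p of 0.01. DESeq2 gave 120 and the likelihood-ratio test 103, the Xist covariate 208 and the replicate block 182. Leaving out one library gave from 19 (CD replicate 1 left out) to 211 (CD replicate 3 left out). Of the 33 pathway genes, 0 passed in the main fit and 1, Ldhb, with Xist as a covariate and 1, Ldhb, with the replicate block. The causes were not tested. The widest intervals among the named genes were those of Hcar1, Hcar2 and Slc16a3, whose variation between libraries beyond counting error was 63.8, 59.6 and 31.8%.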
